A study of Rattus norvegicus with 9 samples.

Results

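The abundant long noncoding RNAs of adipose-derived mesenchymal stem cells (ASCs) numbered 73 of the 4546 genes typed as lncRNA and of all 35362 genes in the count table. A gene was a member where at least 200 counts were found in each of the 3 samples of at least one group, and H19 and Meg3 were set aside. Members were thus chosen by the measured counts, so the abundance of the members is a description and not a finding. RNA was measured by RNA-seq in subcutaneous ASCs (SASCs), perirenal ASCs (PASCs), and epididymal ASCs (EASCs), grown from fat of the groin, kidney, and testis of Sprague Dawley rats, all male and 6 weeks old. The labels name no treatment or genetic change in any group, all cells were at passage 3 in high glucose medium, and the labels set the groups apart by fat depot alone. The labels give 3 samples in each group and do not tie a sample to a rat, and the methods speak of 6 rats and 6 replicate wells per group. All sample titles open with the same prefix, whose meaning is not given. The p-values therefore measure the spread between these samples, which may be technical.

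Long noncoding RNAs are transcripts, often spliced and polyadenylated, that carry no long reading frame translated into protein. Some act at the place where they are made and alter the transcription of neighboring genes, some bind proteins or microRNAs, and others serve as hosts whose introns release small nucleolar RNAs. Many start close to a coding gene or run across it on the other strand, and in fat cells several are known to rise or fall during adipogenesis.

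The total counts ranged from 17591916 to 30299032 per sample, of which ribosomal RNA genes took 10.4% to 15.5% in SASCs against 22.4% to 32.9% in PASCs and 15.9% to 40.3% in EASCs, and no call of a member changed when these genes were removed. Values are given as CPM, counts divided by a library size that TMM scaling had made less sensitive to a few abundant genes. A gene at 3 counts lay at 0.104 to 0.159 CPM, a limit that covers counting error only. Members took 0.249% to 0.303% of the counts outside ribosomal RNA genes and 63.3% to 70.0% of the counts of all lncRNA genes. The 10 mesenchymal markers in the table were all expressed and tested, with a median log2 fold change against SASCs of 0.85 in EASCs and 0.55 in PASCs. Eng (1.77) and Itgb1 (1.497) were more than 2-fold higher in EASCs, Pdgfra was lower in EASCs (-2.72) and PASCs (-2.47), and the other 7 differed by less than 2-fold in both. Marker lists of other cell types also moved with the depots. The summed level of mesothelial markers was 18.4 to 20.02 CPM in SASCs against 94.5 to 101 CPM in PASCs and 129.5 to 141 CPM in EASCs, with 6 of 8 genes tested and all 6 higher than in SASCs in both comparisons. Adipocyte markers summed to 87.1 to 95.9, 19.1 to 20.2, and 9.24 to 10.1 CPM in that order of groups, with 4 of 5 genes tested and all 4 lower in both comparisons. Leukocyte markers summed to 39.2 to 41.3, 60.4 to 62.5, and 90.6 to 92.1 CPM, with Cd3e at 0 counts in every sample and 5 of 8 genes tested. Of the 5, 4 were more than 2-fold higher in EASCs than in SASCs and 2 in PASCs. All 5 were higher in both at an unadjusted p under 0.05 (edgeR's quasi-likelihood test). Endothelial markers summed to 41.8 to 44.3, 11.5 to 14.4, and 29.4 to 32.4 CPM, with 5 of 6 genes tested. By more than 2-fold, 1 was higher and 1 lower in EASCs, and 1 was higher and 4 lower in PASCs. Pecam1 was also lower in EASCs, by less than 2-fold (-0.71). The part of other cells in the levels below was not tested, and in bulk RNA fewer cells of a type and less RNA per cell cannot be told apart.

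Of the 73 members, 40 were matched by gene ID to RefSeq (assembly GRCr8), which lists 37 of them as lncRNA and 3 as protein coding, and 7 carried a symbol other than a LOC number. These 7 are Gas5, Vof16, Oip5-as1 (LOC100910827 in the table), Fam24al1 (LOC103691165), Smim30l1 (LOC100363521), Fndc4 (LOC100910821), and Atp5mpl (LOC100912557). RefSeq types Fndc4, which encodes a fibronectin type III domain protein, Atp5mpl, which encodes a small subunit of the mitochondrial ATP synthase, and LOC100912167 as coding, so these 3 members are noncoding by the deposited annotation only. The type of the 33 members without a match also rests on that annotation alone. Among them, LOC100911029 and LOC100911851 are described there by the names of proteins, as like a nudC domain protein and like an intersectin. Promoter windows from 250 bases before to 50 bases after the annotated start were held for 35 members. The windows of 6 members are shown because these genes carried the 4 largest differences between EASCs and SASCs among members with a window, or, for Gas5 and Oip5-as1, because they are the best known of the set. Each is written 5′ to 3′ on the strand of the gene, with its RefSeq GRCr8 position. Capitals mark TATAAA (the TATA box), CCAAT (the CCAAT box), GGGCGG (the GC box), TGACTCA (the AP-1 motif), TGACGTCA (the cyclic AMP response element), and GGAATG (the TEAD motif), each searched on both strands.
LOC100910973 (chr1:217133198-217133497, minus strand): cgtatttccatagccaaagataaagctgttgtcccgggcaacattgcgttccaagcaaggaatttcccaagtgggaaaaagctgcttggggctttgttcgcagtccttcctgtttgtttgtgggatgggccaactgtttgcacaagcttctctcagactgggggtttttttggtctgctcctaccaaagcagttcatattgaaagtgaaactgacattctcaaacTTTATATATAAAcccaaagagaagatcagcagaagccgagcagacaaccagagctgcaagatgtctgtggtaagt
LOC100911221 (chr5:115013005-115013304, plus strand): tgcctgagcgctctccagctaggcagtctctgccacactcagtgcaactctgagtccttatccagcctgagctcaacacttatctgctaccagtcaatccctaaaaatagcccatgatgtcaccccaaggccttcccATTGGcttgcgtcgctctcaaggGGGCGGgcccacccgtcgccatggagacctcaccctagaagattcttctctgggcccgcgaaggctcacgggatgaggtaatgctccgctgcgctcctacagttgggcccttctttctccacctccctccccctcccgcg
LOC102552725 (chr11:38535974-38536273, plus strand): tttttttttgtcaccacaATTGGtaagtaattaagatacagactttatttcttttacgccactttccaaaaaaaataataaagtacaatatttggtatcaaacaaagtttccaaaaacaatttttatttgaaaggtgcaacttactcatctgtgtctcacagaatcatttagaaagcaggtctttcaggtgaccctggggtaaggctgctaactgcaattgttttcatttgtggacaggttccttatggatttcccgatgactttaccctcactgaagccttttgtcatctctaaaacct
LOC103691977 (chr3:178825074-178825373, minus strand): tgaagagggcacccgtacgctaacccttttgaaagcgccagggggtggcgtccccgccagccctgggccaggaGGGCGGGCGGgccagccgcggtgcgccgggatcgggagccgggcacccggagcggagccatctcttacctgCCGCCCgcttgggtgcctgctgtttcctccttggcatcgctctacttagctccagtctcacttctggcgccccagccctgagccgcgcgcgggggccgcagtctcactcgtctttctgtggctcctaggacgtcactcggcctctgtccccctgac
Oip5-as1 (chr3:127031872-127032171, plus strand): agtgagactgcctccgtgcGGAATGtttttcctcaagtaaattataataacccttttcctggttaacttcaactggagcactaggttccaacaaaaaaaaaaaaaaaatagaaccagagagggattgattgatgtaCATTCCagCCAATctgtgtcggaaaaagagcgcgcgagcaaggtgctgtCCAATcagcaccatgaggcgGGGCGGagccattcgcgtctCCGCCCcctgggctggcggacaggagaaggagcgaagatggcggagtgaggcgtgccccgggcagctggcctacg
Gas5 (chr13:75836713-75837012, plus strand): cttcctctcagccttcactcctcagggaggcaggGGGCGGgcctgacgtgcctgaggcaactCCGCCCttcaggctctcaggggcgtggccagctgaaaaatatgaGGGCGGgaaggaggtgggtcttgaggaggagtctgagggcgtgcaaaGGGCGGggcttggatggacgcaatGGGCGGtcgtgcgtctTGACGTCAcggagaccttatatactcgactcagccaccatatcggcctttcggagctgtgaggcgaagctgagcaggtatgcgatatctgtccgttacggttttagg
With the first transcribed base as 1 and the base before it as -1, the window of LOC100910973 held TATAAA from -25 on the other strand and from -19 on its own strand, and these sites touch without sharing a base. The Gas5 window held GGGCGG at 5 places and TGACGTCA from -57, which reads the same on both strands. In the window of LOC103691977 the GGGCGG sites from -177 and -173 share bases. Among the 35 member windows, 7 held TATAAA, 11 CCAAT, 15 GGGCGG, 7 GGAATG, 1 TGACTCA (LOC103691043), and 1 TGACGTCA (Gas5). The shares among all 27457 rat windows of the same length were 14.3% for TATAAA, 37.7% for CCAAT, 34.9% for GGGCGG, 13.9% for GGAATG, 4.53% for TGACTCA, and 1.91% for TGACGTCA. The median GC content was 56.3% in the member windows and 52.3% in all windows, and the median number of CpG dinucleotides was 15 and 7. A match describes the letters of the window and no binding was measured.

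The 73 members had gene lengths of 353 to 15324 bases in the table, with a median of 2539, against 1217 for all lncRNA genes. Of the members, 45 reached 200 counts in all 3 groups, 7 in 2 groups, and 21 in 1 group, and of the last, 16 did so in SASCs, 4 in EASCs, and 1 in PASCs. A member that reached the count in SASCs alone had to be lower elsewhere, or nearly so, and such members are described apart from the 45. At the edge of the rule, LOC102547503 had a lowest count of 200 in its best group, and LOC102556093 and LOC102552854 had 201. Just outside stood LOC102548522 with 198, LOC100912084 with 196, and LOC102551236 with 193. H19, which was set aside, had at most 23 counts in any sample and would not have entered.

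Per kilobase of length, the order of levels was led by LOC100910973 with a mean of 131 CPM per kb over the groups, Gas5 with 85.5, LOC102557601 with 77.7, LOC102555223 with 76.2, and LOC103692362 with 59.6. The order differed by depot. In SASCs, LOC103692362 (130.3 CPM per kb), LOC102557601 (117), and Gas5 (91.8) stood above LOC100910973 (42.9). In EASCs, LOC100910973 (207) and LOC102555223 (108) stood above Gas5 (72.8). LOC102557601 and LOC103692362 are short and lie on the strand of Scpep1 and just downstream of Svep1, and how reads there were assigned is not given in the sources used here.

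**Figure D1:**
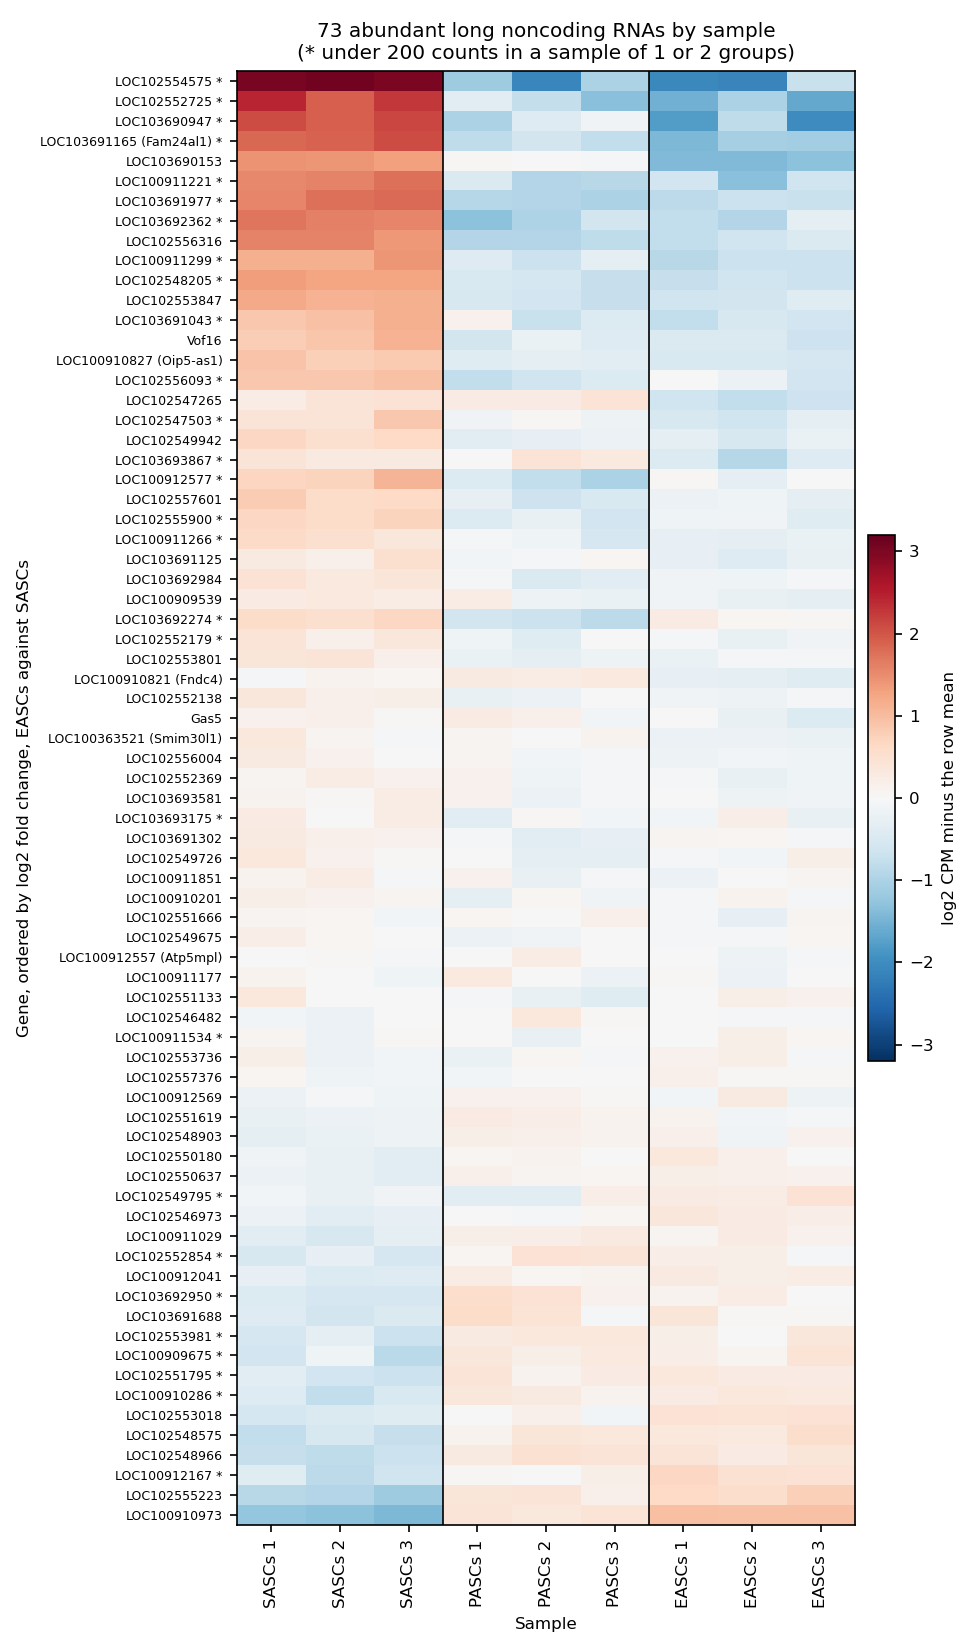
Heat map of the 73 members (rows, ordered by the log2 fold change of EASCs against SASCs) in the 9 samples (columns), with color for log2 CPM minus the row mean. The upper rows are high in the 3 SASCs samples and low in the other samples, the lowest rows run the other way, and the middle rows stay near the mean.

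The comparison of visceral with subcutaneous ASCs asked which of these RNAs differ by depot. A gene was called differentially expressed (DEG) where it differed more than 2-fold and its adjusted p-value from edgeR's quasi-likelihood test, over all 14770 genes tested, lay below 0.05, and all 73 members were tested. Between EASCs and SASCs, 23 members were DEGs, 5 higher and 18 lower in EASCs, where 27.8% of all genes tested were DEGs (13.6% higher and 14.2% lower). Between PASCs and SASCs, 23 members were DEGs, 3 higher and 20 lower in PASCs, where 26.9% of all genes were DEGs (12.0% higher and 14.9% lower). Between EASCs and PASCs, 2 members were DEGs, both lower in EASCs, where 7.39% of all genes were DEGs (5.19% higher and 2.2% lower). No member was higher in EASCs than in PASCs as a DEG by edgeR's quasi-likelihood test or by DESeq2, and 13 were higher at an unadjusted p under 0.05. With scaling by total counts and no TMM the median log2 fold change of all genes stood at -0.39 in EASCs and -0.33 in PASCs against SASCs, and the members then split into 2 higher and 25 lower in EASCs and 1 higher and 22 lower in PASCs. EASCs and PASCs were both compared with the same SASCs samples, so the first comparisons are not independent of each other.

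Among the 45 members that reached 200 counts in every group, 4 rose and 6 fell in EASCs and 3 rose and 6 fell in PASCs, against SASCs. Their median log2 fold change was -0.14 in EASCs and -0.05 in PASCs, where the medians of all genes tested were 0.01 and -0.01. Of the 28 members that reached it in 1 or 2 groups, 1 was a DEG in the higher and 12 in the lower direction in EASCs, and 0 and 14 in PASCs, numbers that the rule itself favors and that are given without weight. In PASCs DESeq2 also called 0 of these members higher, and 7 were higher at an unadjusted p under 0.05. The 2 DEGs between EASCs and PASCs were among the 45. Of all 677 lncRNA genes tested, 69 were higher and 219 lower in EASCs (42.5% DEGs) and 52 higher and 215 lower in PASCs (39.4% DEGs). Of the 12733 coding genes tested, 26.3% and 25.7% were DEGs. The low-count filter can admit a gene through the group where it is high, which favors DEGs among genes of low counts. These shares are therefore also given without weight.

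**Figure D2:**
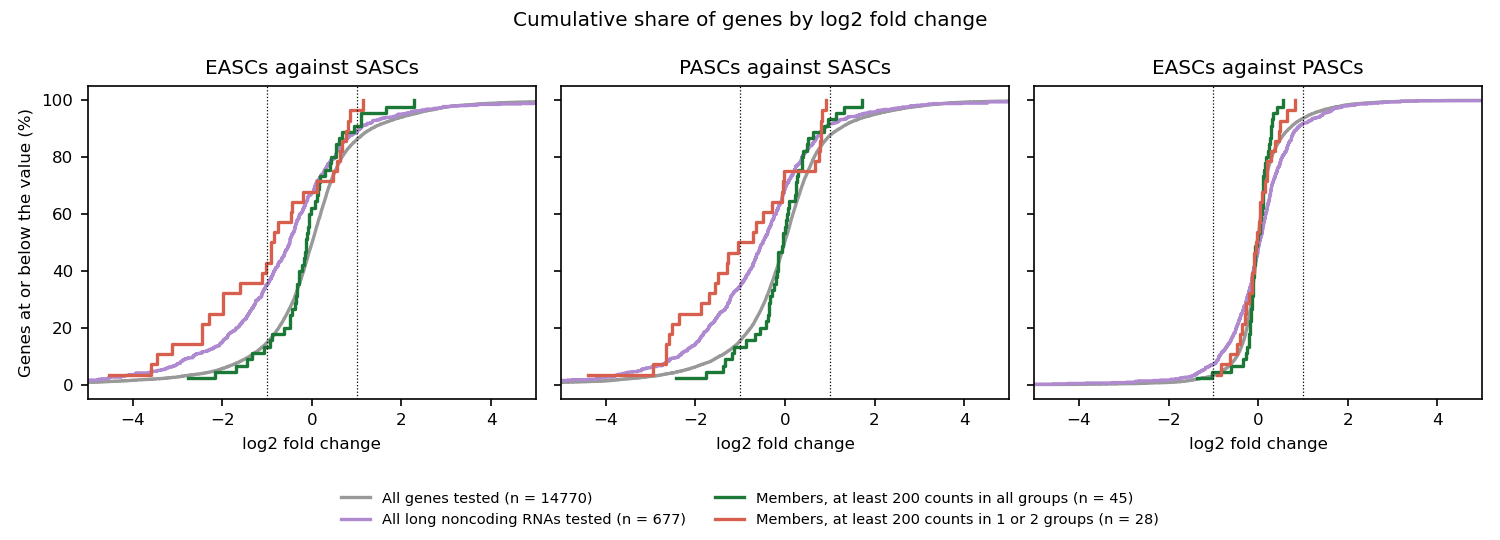
Cumulative share of genes (vertical axis, %) at or below each log2 fold change (horizontal axis, shown from -5 to 5) for all genes tested, all lncRNA genes tested, and the members split by the number of groups in which they reached 200 counts, with dotted lines at a fold change of 2. The curve of the 45 members that reached it in 3 groups lies near that of all genes against SASCs, while the curve of the 28 others is shifted to lower values.

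Among the members that reached 200 counts in every group, LOC103690153 (rn6, chr20:13181593-13184880, minus strand) fell the most in EASCs. It measured 145, 141, and 132 CPM in SASCs against 54.6, 52.9, and 51.9 CPM in PASCs and 20.2, 20.2, and 21.5 CPM in EASCs. The 3 groups did not overlap and stood in the order SASCs, PASCs, EASCs. The log2 fold change was -2.76 (SE 0.06) in EASCs against SASCs, a level 6.78-fold lower (edgeR's quasi-likelihood test, adjusted p = 9.99e-24), -1.39 (SE 0.06) in PASCs against SASCs (adjusted p = 7.60e-18), and -1.37 (SE 0.06) in EASCs against PASCs (adjusted p = 1.22e-15). It lies within the span of Prmt2, a protein arginine methyltransferase on the other strand that did not fall, with log2 fold changes of 0.31 and 0.33. Per 100 counts of Prmt2 the member had 983 to 1089.6 counts in SASCs against 290.2 to 344 in PASCs and 111 to 139 in EASCs. On the strand of the member, Spatc1l, 6.84 kb away, had log2 fold changes of 0.07 and 0.29, and on the other strand Dip2a, 53.6 kb away, had -0.12 and -0.25. Also on the strand of the member, 38.7 kb away, S100b, a calcium-binding protein known from glia, melanocytes, and fat cells, had the same order, at 29.8 ± 1.83 CPM (SD, n = 3) in SASCs against 6.94 ± 0.429 CPM in PASCs and 1.48 ± 0.198 CPM in EASCs. The list of Schwann cell and melanocyte markers that holds S100b summed to 70.7 to 72.97 CPM in SASCs against 12.8 to 14.5 in PASCs and 3.94 to 5.10 in EASCs. In this list 3 of 6 genes were tested, all 3 more than 2-fold lower in EASCs and 2 in PASCs. Of its defining genes, Sox10 had at most 3 counts and Dct 0 in any sample.

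Oip5-as1 (LOC100910827, rn6, chr3:111397030-111410582, plus strand), also called Cyrano and known for directing the decay of a microRNA, fell in both visceral depots. Its levels were 151, 136, and 144 CPM in SASCs against 61.3, 65.5, and 63.7 CPM in PASCs and 57.2, 57.0, and 55.6 CPM in EASCs. All SASCs samples stood above the 6 others, and the PASCs samples stood above the EASCs samples by a small step. The log2 fold change was -1.35 (SE 0.06) in EASCs (adjusted p = 1.28e-17, edgeR's quasi-likelihood test) and -1.18 (SE 0.06) in PASCs (adjusted p = 2.22e-16). Tested genes near it differed in direction. Chp1, the nearest coding gene, had log2 fold changes of -0.24 in EASCs and -0.26 in PASCs, Rtf1 -0.39 and -0.36, and Ndufaf1 -0.22 and -0.29, all short of a 2-fold difference. Oip5, a centromere protein gene 3.08 kb off on the other strand that the table types as misc_RNA, had log2 fold changes of 2.17 in EASCs and 2.83 in PASCs, and Nusap1, a spindle protein on the same strand, 2.48 and 3.28. Oip5 and Nusap1 are genes of dividing cells, and of 20 proliferation genes 18 rose more than 2-fold in EASCs and 20 in PASCs. The summed level of the 20 was 282 to 288 CPM in SASCs against 1442 to 1474 in PASCs and 943 to 969 in EASCs. The largest changes of that list were those of Plk1 (3.50 in EASCs and 4.06 in PASCs) and Ccnb1 (3.30 and 4.02), which drive entry into mitosis. The part of proliferation in the levels of the members was not tested.

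Vof16 (rn6, chr8:45798356-45800462, plus strand), which the table describes as an ischemia related factor, measured 56.1, 59.5, and 70.2 CPM in SASCs against 21.6, 27.7, and 24.3 CPM in PASCs and 23.6, 23.5, and 20.3 CPM in EASCs. The SASCs samples stood above all others, and PASCs and EASCs overlapped. Its log2 fold change was -1.46 (SE 0.09) in EASCs (edgeR's quasi-likelihood test, adjusted p = 6.63e-14) and -1.33 (SE 0.09) in PASCs (adjusted p = 4.30e-13). No tested coding gene lay within 100 kb, but LOC102555479, a gene with no type in the table, overlaps it on the other strand and had log2 fold changes of -1.43 and -1.37.

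The other members of this kind lower in both depots were LOC102556316 and LOC102553847. LOC102556316 (rn6, chr5:167965373-167970127, minus strand) measured 89.0, 88.7, and 77.1 CPM in SASCs against 15.5, 15.3, and 16.6 CPM in PASCs and 17.2, 19.01, and 21.2 CPM in EASCs, with all visceral samples far below those of SASCs. It was 4.45-fold lower in EASCs and 5.40-fold lower in PASCs, and Errfi1, the feedback inhibitor of the EGF receptor that it overlaps by 639 bases on the other strand, had log2 fold changes of -2.16 and -2.64 against -2.15 and -2.43 for the member. LOC102553847 (rn6, chr4:157125866-157126857, minus strand) measured 58.8, 55.1, and 56.1 CPM in SASCs against 18.02, 16.7, and 15.4 CPM in PASCs and 16.5, 16.9, and 19.5 CPM in EASCs. Its log2 fold changes of -1.68 and -1.76 stood beside -1.76 and -1.95 for C1r, a protease of the classical complement pathway that overlaps it on the other strand. Per 100 counts of the coding gene, LOC102556316 had 14.7 to 20.6 counts and LOC102553847 3.96 to 5.08 counts over all 9 samples. Whether strand was used in counting is not given in the sources used here, so the reads of such a member and of the gene on the other strand cannot be told apart.

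**Figure D3:**
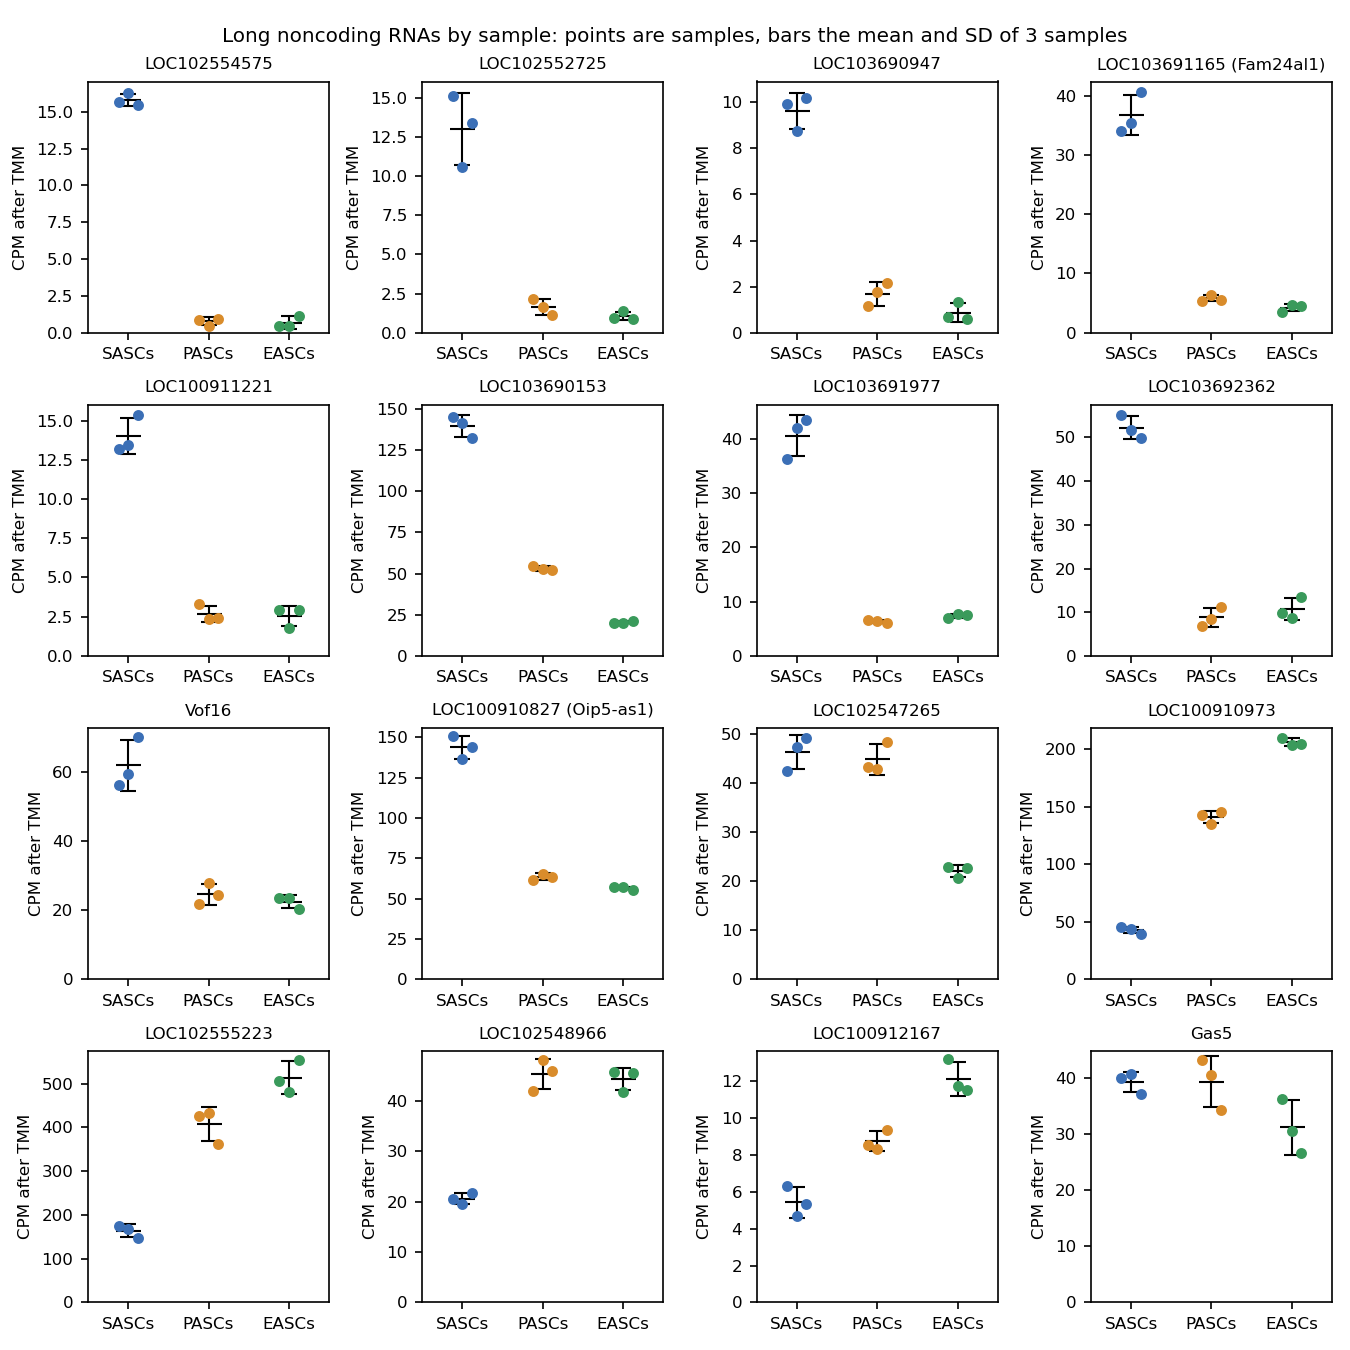
Levels of 16 members (CPM after TMM scaling, linear axes from 0) in the 9 samples, with points for samples and bars for the mean and SD of 3 samples per group. The first 11 panels show lower levels in one or both visceral depots, the next 4 show higher levels, and the Gas5 samples overlap between SASCs and PASCs.

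Of the 16 members that reached 200 counts in SASCs alone, 11 were lower in EASCs by more than 2-fold with an adjusted p-value under 0.05 and 13 in PASCs. Because the rule chose them by their SASCs counts, their values are given as a description. LOC102554575 (rn6, chr13:109725220-109743493, minus strand) measured 15.7, 16.3, and 15.5 CPM in SASCs against 0.880, 0.449, and 0.953 CPM in PASCs and 0.461, 0.446, and 1.16 CPM in EASCs, which in counts was 317 to 451 in SASCs against 12 to 23 in PASCs and 11 to 26 in EASCs. Its level was 23.1-fold lower in EASCs and 21.2-fold lower in PASCs. Its end lies 94 bases from the end of Batf3, a transcription factor of the AP-1 family on the other strand, which had log2 fold changes of -3.51 and -3.06 against -4.53 and -4.40 for the member. Of the other tested coding genes within 100 kb, Nsl1, a kinetochore protein 27.4 kb away, had 2.29 and 2.68, Tatdn3 -0.43 and -0.12, and Atf3, a stress-induced transcription factor, -1.07 and -1.42.

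LOC102552725 (rn6, chr11:25458463-25465907) measured 15.1, 10.6, and 13.4 CPM in SASCs against 2.18, 1.64, and 1.11 CPM in PASCs and 0.963, 1.38, and 0.895 CPM in EASCs, with all SASCs samples above the others and overlap between PASCs and EASCs. It starts 1824 bases from the start of Adamts5, the aggrecan-cleaving protease, and had log2 fold changes of -3.58 (SE 0.21) and -2.95 (SE 0.20), where Adamts5 had -1.77 and -1.44. LOC103690947 (rn6, chr1:33277555-33281870) measured 9.94, 8.74, and 10.2 CPM in SASCs against 1.15, 1.76, and 2.17 CPM in PASCs and 0.670, 1.34, and 0.582 CPM in EASCs. It starts 1691 bases from Irx2, an Iroquois homeobox transcription factor, and its log2 fold changes of -3.46 and -2.53 stood beside -3.67 and -3.65 for Irx2, whose level was 12.8 ± 0.932 CPM (SD, n = 3) in SASCs and 1.00 ± 0.410 CPM in EASCs. Batf3, Adamts5, and Irx2 do not share bases with these members in the table, and LOC103690947 lies across Vom2r6, a vomeronasal receptor gene on the other strand with 0 counts in every sample. Without EASCs sample 2 or PASCs sample 1, LOC103690947 became a DEG between EASCs and PASCs too (-1.40 and -1.15, against -0.93 with all samples).

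Fam24al1 (LOC103691165, rn6, chr1:137420225-137426125) measured 34.1, 35.4, and 40.6 CPM in SASCs against 5.43, 6.43, and 5.56 CPM in PASCs and 3.56, 4.62, and 4.43 CPM in EASCs, and all samples of the 3 groups were apart. The nearest tested coding gene, Klhl25, lay over 60 kb off and was higher in both visceral depots (1.09 and 1.06 on the log2 scale), while Fam24al1 was lower (-3.12 and -2.65). LOC100911221 (rn6, chr5:114014532-114031163) measured 13.2, 13.5, and 15.3 CPM in SASCs against 3.29, 2.36, and 2.44 CPM in PASCs and 2.93, 1.78, and 2.91 CPM in EASCs. It starts 255 bases from the start of Jun, the AP-1 subunit, on the other strand, and had log2 fold changes of -2.46 (SE 0.17) and -2.36 (SE 0.17), where Jun had -0.57 and -0.63. Per 100 counts of Jun the member had 22.7 to 26.0 counts in SASCs and 4.37 to 7.60 in EASCs. LOC103691977 (rn6, chr3:166460118-166465804) measured 36.3, 42.0, and 43.3 CPM in SASCs against 6.54, 6.505, and 6.09 CPM in PASCs and 6.91, 7.70, and 7.52 CPM in EASCs, a difference of 5.49-fold and 6.33-fold, while Tshz2, a zinc finger homeobox gene that starts 3976 bases away on the other strand, had log2 fold changes of -0.32 and -0.44.

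LOC103692362 (rn6, chr5:75143518-75144774), which reached the count in SASCs and EASCs, measured 55.1, 51.7, and 49.9 CPM in SASCs against 6.81, 8.52, and 11.2 CPM in PASCs and 9.80, 8.76, and 13.5 CPM in EASCs. It lies 2471 bases downstream of Svep1, a large protein of the extracellular matrix, on the same strand, and had log2 fold changes of -2.30 and -2.59 beside -2.10 and -2.68 for Svep1. The remaining members lower in both depots were LOC100911299 (-1.98 in EASCs and -1.71 in PASCs), LOC102548205 (-1.98 and -1.88), LOC103691043 (-1.62 and -1.27), and LOC102556093 (-1.12 and -1.50), all on the log2 scale. LOC103691043 overlaps Gltscr1, a subunit of a SWI/SNF chromatin remodeling complex, on the other strand, with -1.44 and -1.29. LOC102556093 no longer passed the fold threshold in EASCs when EASCs sample 3 was left out (-0.97).

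Several members were DEGs in one visceral depot and not in the other. LOC102547265 (rn6, chr2:206216377-206219737, plus strand) measured 42.4, 47.3, and 49.2 CPM in SASCs against 43.2, 42.9, and 48.4 CPM in PASCs and 22.9, 20.6, and 22.7 CPM in EASCs. The EASCs samples stood below all others, and SASCs and PASCs overlapped. The log2 fold change was -1.07 (SE 0.08) in EASCs against SASCs, -0.05 (SE 0.07) in PASCs against SASCs, and -1.02 (SE 0.08) in EASCs against PASCs (edgeR's quasi-likelihood test, adjusted p = 2.74e-11). Olfml3, a secreted protein of the extracellular matrix that overlaps it by 319 bases on the other strand, had -1.01, 0.05, and -1.06, and the member had 14.2 to 17.2 counts per 100 counts of Olfml3 over the 9 samples. The member lay just past the threshold of a 2-fold difference between EASCs and PASCs, and without EASCs sample 2 or PASCs sample 3 it was no longer a DEG (-0.97 each time).

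LOC100912577, LOC102555900, LOC103692274, and LOC102547503 reached 200 counts in SASCs alone, so the rule favored lower values elsewhere and theirs are a description. In PASCs but not EASCs, LOC100912577, LOC102555900, LOC102557601, and LOC103692274 were DEGs against SASCs, all lower. With total counts and no TMM, LOC100912577 (-1.32), LOC102555900 (-1.23), and LOC102557601 (-1.27) were DEGs in EASCs too. LOC103692274 (rn6, chr5:6132689-6134922) measured 9.91, 9.34, and 10.4 CPM in SASCs against 4.32, 4.07, and 3.65 CPM in PASCs and 7.83, 6.81, and 6.67 CPM in EASCs, with the 3 groups apart and EASCs between the others. It overlaps Sulf1, which trims sulfate groups from heparan sulfate outside the cell, on the other strand, and Ube2w on its own strand. Its log2 fold changes were -0.47 in EASCs and -1.29 in PASCs, beside -0.57 and -1.55 for Sulf1 and -0.76 and -0.64 for Ube2w. Between EASCs and PASCs it differed by 0.81 (SE 0.14) (edgeR's quasi-likelihood test, adjusted p = 5.01e-05), short of a 2-fold difference. LOC100912577 (rn6, chr3:29989757-30000903) measured 8.66, 8.79, and 11.5 CPM in SASCs against 3.94, 3.103, and 2.65 CPM in PASCs and 5.53, 4.38, and 5.46 CPM in EASCs, and it lies 3827 bases from Zeb2, a zinc finger transcription factor on the same strand, with -0.91 and -1.56 on the log2 scale beside -0.73 and -1.27 for Zeb2. LOC102557601 (rn6, chr10:76261195-76262962), inside Scpep1 (a serine carboxypeptidase) on its strand, had -0.89 and -1.14 beside -1.09 and -1.37. LOC102555900, with -0.85 and -1.06, was no longer a DEG in PASCs without PASCs sample 3 (-0.98). LOC102547503, at the edge of the rule, was a DEG in EASCs only (-1.04 and -0.64) and lost that call without EASCs sample 2 (-0.95) or SASCs sample 3 (-0.88). Of the members named so far, LOC102547265 and LOC103690153 were DEGs between EASCs and PASCs with all samples, and the others were not.

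In EASCs 5 members rose, and 3 of them rose in PASCs too. LOC100910973 (rn6, chr1:227110936-227113844, minus strand) had the largest increase of all members, and its function is not given in the table. It measured 45.2, 43.3, and 39.6 CPM in SASCs against 143, 135, and 145 CPM in PASCs and 209.9, 204, and 205 CPM in EASCs. The 3 groups did not overlap and ran SASCs, PASCs, EASCs from low to high. It was 4.82-fold higher in EASCs (log2 fold change 2.27 (SE 0.06), edgeR's quasi-likelihood test, adjusted p = 1.90e-22) and 3.30-fold higher in PASCs (log2 fold change 1.72 (SE 0.06), adjusted p = 9.40e-20), with no tested coding gene within 100 kb. EASCs stood 0.55 (SE 0.06) above PASCs on the log2 scale (adjusted p = 6.80e-09), which was below a 2-fold difference.

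LOC102555223 (rn6, chr13:90802754-90807685, plus strand), the member with the most counts, measured 175, 169, and 147 CPM in SASCs against 427, 432, and 362 CPM in PASCs and 507, 481, and 554 CPM in EASCs. It rose 3.13-fold in EASCs and 2.48-fold in PASCs. Tagln2, an actin-binding protein of the transgelin family that overlaps it by 490 bases on the other strand, had log2 fold changes of 1.59 and 1.28 beside 1.65 and 1.31, and the member had 35.2 to 41.7 counts per 100 of Tagln2. LOC102548966 (rn6, chr12:24314066-24316678) measured 20.6, 19.5, and 21.6 CPM in SASCs against 42.0, 48.0, and 46.0 CPM in PASCs and 45.7, 41.7, and 45.5 CPM in EASCs, and its log2 fold changes of 1.11 and 1.14 stood beside 1.30 and 1.29 for Hip1, an endocytic adaptor on the other strand. LOC102548575 (rn6, chr3:147040553-147043147) rose in EASCs (1.10) and reached 0.97 in PASCs, where it became a DEG without PASCs sample 1 (1.05) or SASCs sample 2 (1.06), beside 0.90 and 0.78 for Fkbp1a, the binding protein of the drug FK506, on the other strand. LOC100912167 (rn6, chr10:109371572-109373627), coding in RefSeq, measured 6.33, 4.67, and 5.32 CPM in SASCs against 8.53, 8.34, and 9.37 CPM in PASCs and 13.2, 11.7, and 11.5 CPM in EASCs and rose in EASCs (1.15), with 0.67 in PASCs, and it reached 200 counts in EASCs alone. Scaled by total counts without TMM, LOC102548966, LOC102548575, and LOC100912167 were no longer DEGs in EASCs, nor LOC102548966 and LOC102555223 in PASCs, with log2 fold changes between 0.69 and 0.98.

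No comparison gave a call for 46 members. Of these, LOC103691688 and LOC103692950 became DEGs in PASCs without PASCs sample 3 (1.01 and 1.02, against 0.86 and 0.91) and LOC100909675 without SASCs sample 2 (1.00, against 0.78). With total counts and no TMM, LOC100911266 (-1.15 in EASCs and -1.05 in PASCs) and LOC102549942 (-1.35 and -1.19) became DEGs in both depots, and LOC103691125 (-1.03) and LOC103693867 (-1.33) in EASCs. Gas5 (rn6, chr13:78852523-78855844), a growth-arrest RNA that hosts small nucleolar RNAs in its introns, measured 40.1, 40.8, and 37.3 CPM in SASCs against 43.3, 40.6, and 34.4 CPM in PASCs and 36.4, 30.7, and 26.7 CPM in EASCs. Its log2 fold change was -0.33 (SE 0.09) in EASCs (edgeR's quasi-likelihood test, adjusted p = 0.00227), 0.0044 (SE 0.09) in PASCs, a value whose sign changed with the scaling, and -0.34 (SE 0.09) between EASCs and PASCs. All EASCs samples lay below the SASCs samples, by less than 2-fold. Smim30l1 had -0.33 in EASCs and -0.08 in PASCs, Atp5mpl -0.07 and 0.10, and Fndc4 -0.37 and 0.23. LOC102546482, which runs across Npm1 (a nucleolar chaperone of ribosome assembly) on the other strand, had 0.06 and 0.24 beside -0.0034 and 0.21.

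By position in the table, 34 members overlapped a coding gene by at least 1 base, 33 of them on the other strand and 6 on the same strand, and 39 overlapped none. The starts of 17 members lay within 1 kb of the start of a coding gene on the other strand. Of the 45 members that reached 200 counts in every group, 25 overlapped a coding gene, of which 3 rose and 4 fell in EASCs and 2 rose and 4 fell in PASCs against SASCs. The 20 without overlap held 1 that rose and 2 that fell in each visceral depot. Of all genes tested, 13.6% were higher and 14.2% lower DEGs in EASCs, and 12.0% and 14.9% in PASCs. With so few members, no difference between those with and without overlap is read from these counts. Of the 16 members that reached the count in SASCs alone, 5 overlapped and 11 did not, and 2 and 9 of these were lower DEGs in EASCs and 4 and 9 in PASCs, directions that the rule itself favors. Both DEGs between EASCs and PASCs overlapped a coding gene.

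For 32 pairs of a member and a tested coding gene that overlap on other strands, the log2 fold changes had the same sign in 26 pairs for EASCs against SASCs, 24 for PASCs against SASCs, and 27 for EASCs against PASCs. The median absolute difference within a pair was 0.13, 0.18, and 0.08 on the log2 scale, and Pearson's r across pairs was 0.68, 0.84, and 0.71 (Spearman's rho 0.78, 0.74, and 0.87). The pairs share libraries, and a pair may share reads, so the values describe the pairs and carry no test. For the 16 divergent pairs, some of which also overlap, the sign was the same in 9, 8, and 11 pairs, and the median absolute difference was 0.26, 0.49, and 0.14, with Pearson's r of 0.53, 0.52, and 0.08 (Spearman's rho 0.40, 0.28, and 0.04). The 4 tested pairs on the same strand, too few for a correlation, had the same sign in 4, 4, and 3 pairs. LOC103691302 stood apart from its second overlapping gene, Ncf1, a subunit of the phagocyte NADPH oxidase, with -0.17 beside 2.63 in EASCs, while the first, Gtf2i, had -0.15. LOC102552854 starts close to Aasdh, which had -0.89 in EASCs where the member had 0.55, and it overlaps Ppat on the other strand, which had 0.47.

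**Figure D4:**
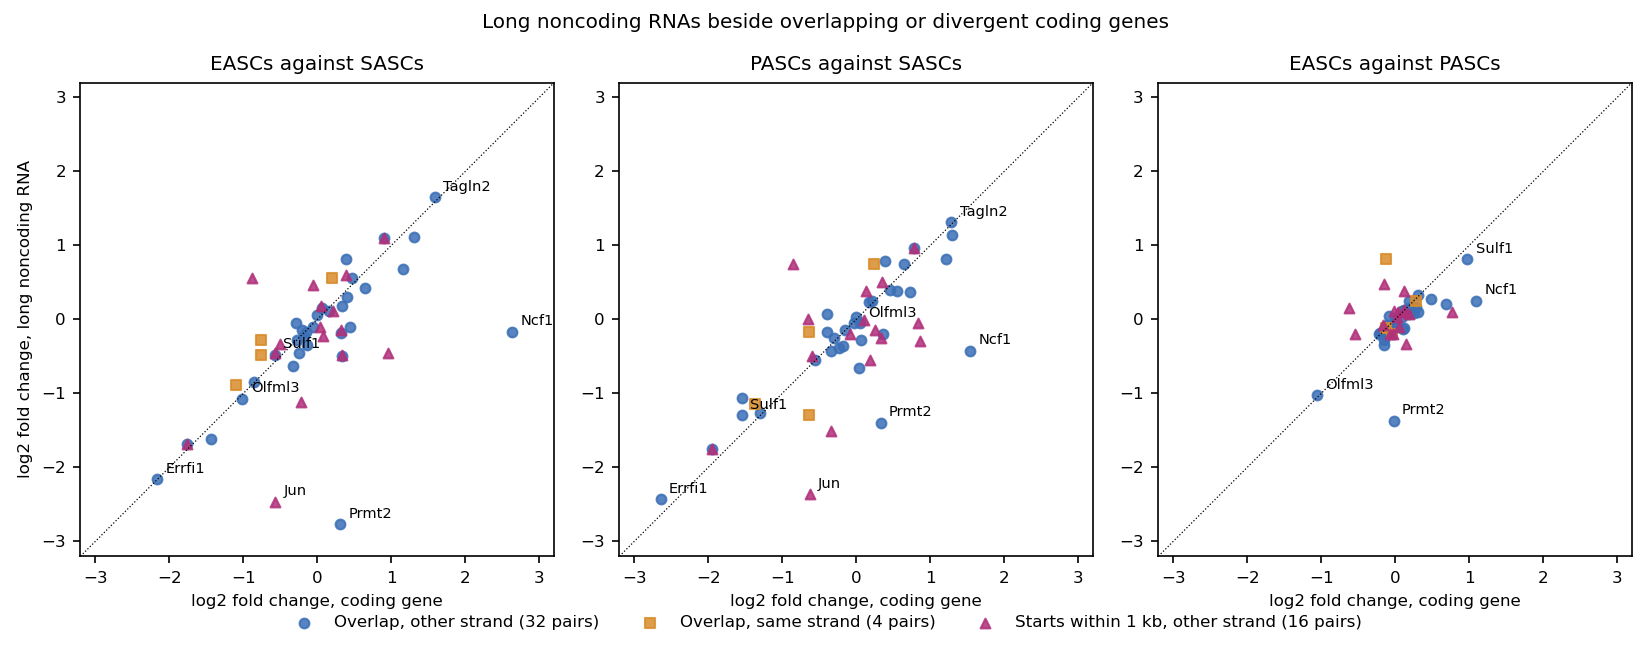
Log2 fold change of each member (vertical axis) against that of its coding gene (horizontal axis) in 3 comparisons, with circles for overlap on the other strand, squares for overlap on the same strand, triangles for starts within 1 kb, and a dotted line of equal change. Most circles lie near the line, such as the pairs with Errfi1, Tagln2, and Olfml3, and the pairs with Prmt2, Jun, and Ncf1 lie away from it.

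Lists of genes that long noncoding RNAs are known to work with are given beside the shares of DEGs among all genes tested, 27.8% in EASCs and 26.9% in PASCs against SASCs. Of 22 lncRNA hosts of small nucleolar RNAs, 3 were in the table by name and 2 were tested (Gas5 and Snhg4), with no DEG by edgeR's quasi-likelihood test or DESeq2 against SASCs, and 1 at an unadjusted p under 0.05 in EASCs and 0 in PASCs. Of the 9 tested proteins that bind small nucleolar RNAs, only Fbl, the 2′-O-methyltransferase of ribosomal RNA, rose above 2-fold, in PASCs (1.21) and not in EASCs (0.99), and the median of the list was 0.62 in EASCs and 0.66 in PASCs. Of 18 tested translation genes of the kind that carry a 5′ terminal oligopyrimidine tract, Hnrnpa1 rose in both (1.03 and 1.17) and 17 were no DEGs. None of 15 paraspeckle proteins, 16 nuclear speckle proteins, and 6 genes of X inactivation that were tested was a DEG against SASCs by edgeR's quasi-likelihood test or by DESeq2. At an unadjusted p under 0.05 stood 11, 15, and 4 of them in EASCs and 9, 14, and 4 in PASCs, so most of these genes differed by less than 2-fold. Among 19 tested genes of proteins known to bind lncRNAs or to be regulated by them, Nr3c1, the glucocorticoid receptor that Gas5 is known to bind, fell in EASCs (-1.32) and PASCs (-1.32), Tert rose in EASCs (1.27), and Ezh2, the histone methyltransferase of Polycomb, rose in PASCs (1.03). Tert was low, with 10 to 65 counts per sample, at 0.98 ± 0.55 CPM (SD, n = 3) in SASCs and 2.41 ± 0.45 CPM in EASCs. None of these lists held a DEG between EASCs and PASCs by either tool, and at an unadjusted p under 0.05 stood 1 host of small nucleolar RNAs, 3 proteins that bind them, 3 translation genes, 8 paraspeckle and 8 nuclear speckle proteins, 3 X inactivation genes, and 8 genes of the list with Nr3c1.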

How the data were processed

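RNA of 9 samples of rat ASCs (3 SASCs, 3 PASCs, and 3 EASCs) was sequenced as paired-end reads of 150 bp. Per the methods of the study, the authors trimmed reads with cutadapt and FastX-Toolkit and aligned them with TopHat to rn6, while the processing notes of the submitters name TopHat2 and rn5. The unplaced contigs in the table carry their rn6 names, so positions are given as rn6. The authors deposited a table of raw counts per gene with gene type, position, strand, and length. The counting tool, its strand setting, and its treatment of reads that match several genes are not given in the sources used here. The only sequence used was that of the promoter windows from RefSeq GRCr8. Columns left unused numbered 0.

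The deposited counts were scaled by TMM (factors 0.740 to 1.23) and filtered with filterByExpr to 14770 genes, and 1 model of the 3 groups over all 9 samples was fitted with edgeR's quasi-likelihood test (edgeR 4.0.16, R 4.3.3; common biological coefficient of variation 0.0685), with Benjamini-Hochberg adjustment over all genes tested. A fold change above 2 with an adjusted p-value under 0.05 made a DEG, the thresholds of the study, whose own test was not used because it takes no account of replicates. The SE printed with a log2 fold change is its absolute value divided by the square root of the test's F statistic. In counts simulated on 14770 genes for EASCs against SASCs, 200 of 200 genes changed 4-fold were recovered, with 2 false calls. The changed genes were drawn from those above a minimum mean level, and all others were left unchanged. The check therefore does not cover differences near 2-fold or genes of low counts. No libraries were duplicates, since chi-square per degree of freedom between samples of a group was 6.23 to 288. DESeq2 1.42.0, other filters and scalings, a replicate block, samples left out, and other count thresholds were run as alternatives.

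Spans were compared by position in the table (overlap of at least 1 base, or starts within 1 kb on other strands). The members and gene lists were chosen with earlier results of these data known. The rule for names took members with a symbol of their own, the 5 largest increases and decreases per comparison among DEGs without overlap between groups, 3 lncRNAs on each side of the count threshold, their overlapping or divergent coding genes, and up to 4 genes per list. Other members and other neighboring genes were named after their values were seen. These members include DEGs, members whose call changed in another setting, and members with no call in any.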

Additional observations from a re-analysis of the deposited data

Results flagged for a closer look

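LOC103690153 and LOC102547265 stood out because the difference between EASCs and PASCs itself passed edgeR's quasi-likelihood test with a fold change above 2. The log2 fold change of EASCs against PASCs was -1.37 for LOC103690153, with all EASCs samples below all PASCs samples. For LOC102547265 it was -1.02, again without overlap of the samples, and its size fell to -0.97 without EASCs sample 2 or PASCs sample 3.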

How the results depend on the processing

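The calls among members, 23, 23, and 2 in the order EASCs against SASCs, PASCs against SASCs, and EASCs against PASCs, fell on the same genes with DESeq2, without the filter on low counts, with the groups compared alone, and without ribosomal RNA genes. The replicate numbers of the labels did not pair the samples (correlations of same-numbered samples -0.025 to 0.059), and with a replicate block 4061 and 3944 genes were DEGs in EASCs and PASCs against SASCs, with 5 and 3 members higher, 18 and 20 lower, and no call of a member changed. With total counts and no TMM, 2 and 1 members were higher, and the median log2 fold change of the members was -0.62 and -0.49. With a fold change above 1.5, 6414, 6405, and 1945 genes were DEGs in the 3 comparisons, 13, 13, and 2 members were higher, and 5 were lower in EASCs than in PASCs. With at least 100 counts, members higher and lower numbered 13 and 34 in EASCs and 11 and 37 in PASCs against SASCs, and 5 were lower in EASCs than in PASCs, since more genes entered. With at least 500 counts, 10 were lower in each visceral depot. Without members that overlap a coding gene, 2 and 1 were higher, 12 were lower in PASCs, and 0 differed between EASCs and PASCs, as both DEGs there overlap one. With 1 sample left out, members higher in PASCs numbered 3 to 5 (5 without PASCs sample 3 or SASCs sample 2) and members lower in EASCs than in PASCs 1 to 3 (1 without PASCs sample 3).

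Values near 0 changed sign. For Gas5 in PASCs it was -0.011 with DESeq2, -0.0012 with the replicate block, -0.33 without TMM, and -0.065 to 0.089 with a sample left out. Without TMM, LOC100910821 stood at -0.093 and LOC100912557 at -0.23 in PASCs, and LOC100363521 ran from -0.16 to 0.033 in PASCs with a sample left out. Between EASCs and PASCs with a sample left out, values ran from -0.70 to 0.11 for LOC102554575, from -0.22 to 0.11 for LOC100911221, and from -0.086 to 0.013 for LOC102548966, of which none was a DEG in that comparison. The cause was not tested. With 3 samples per group of unstated origin, differences near 2-fold are the least secure, reads on opposite strands cannot be separated, and levels of other cell types moved with the depots.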
